A study of Drosophila melanogaster with 12 samples.

Results

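Input RNA of neuroblast-biased larval brains was compared with input RNA of wildtype larval brains. The libraries were taken by their labels: 2 neuroblast-biased and 2 wildtype input libraries, which makes 4 of the 12 libraries in the series. Input RNA is the total brain RNA set aside before methylated RNA was pulled down with an antibody to N6-methyladenosine (m6A), so its read counts follow transcript abundance without that selection. Neuroblast-biased larvae had the genotype insc_aPKC_CAAX, in which insc-Gal4 drives UAS-aPKC-CAAX, a membrane-tethered form of the polarity kinase aPKC, in neuroblasts. Wildtype larvae were Oregon_R, and their labels describe the brain as neuron biased. Another 2 input libraries, from Mettl3 null brains that lack the m6A methyltransferase, shared the fit, and their values are given where they place the wildtype level. All larvae were at stage L3 and were raised under the same standard conditions, and the brain lobes were dissected from each. No brain of either kind holds a single cell type, since neuroblast-biased lobes keep some neurons and glia and wildtype lobes keep their normal neuroblasts. The insc-Gal4 and UAS lines are not Oregon_R, so strain background and aPKC expression cannot be told apart in these libraries.

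A neuroblast is the stem cell of the fly central nervous system. It divides unequally, keeps one daughter as a neuroblast and leaves a smaller ganglion mother cell that gives rise to neurons or glia, and it regrows before its next division. Kinase activity of aPKC at one pole of the cell decides which daughter stays a neuroblast, and the tethered form spreads that activity over the whole membrane so that both daughters can remain neuroblasts. A growing and cycling stem cell needs ribosomes, nucleotides and a division apparatus, while a neuron that has left the cycle builds an axon, ion channels and synapses.

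Of 17807 genes in the count table, 9423 passed the filter on low counts and were tested. The neuroblast-biased libraries held 6005731 and 9051076 counts, against 4220420 and 9134184 counts in the wildtype libraries. Expression is given as CPM, the usual scaling of counts to a common library size, with library sizes adjusted by trimmed means (TMM). Zero counts were unevenly spread, since 532 genes (5.65% of those tested) had 0 counts in 1 neuroblast-biased library and at least 50 in the other, against 18 genes (0.191%) between the wildtype libraries. Defining markers followed the labels: 6 neuroblast markers summed to 2833 and 2984 CPM in neuroblast-biased brains, against 582 and 640 CPM in wildtype brains, and 7 neuron markers summed to 1815 and 1998 CPM in neuroblast-biased brains, against 5405 and 5105 CPM in wildtype brains. A wider list of neuroblast transcription factors was mixed, with 7 of 37 tested genes higher and 6 lower at an adjusted p under 0.05. Its median log2 fold change was 0.02. Its share of counts was 1.69% and 1.81% in neuroblast-biased libraries, against 2.86% and 2.81% in wildtype libraries. Markers of ganglion mother cells and new neurons summed to 1325 and 1170 CPM in neuroblast-biased brains, against 1353 and 1268 CPM in wildtype brains, and none of the 4 passed the test. A wider list of genes of these cells had 13 tested members, 0 higher and 4 lower at an adjusted p under 0.05. Its median log2 fold change was -1.01. Its members summed to 6765.5 and 7948.9 CPM in neuroblast-biased brains, against 19588 and 18769 CPM in wildtype brains. In such bulk RNA, fewer cells of a type and less RNA per cell cannot be told apart.

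At an adjusted p under 0.05 in limma-voom, neuroblast-biased brains had 498 genes above and 762 genes below their wildtype level, which is 5.28% and 8.09% of the genes tested. The median log2 fold change over all genes tested was -0.17. The same contrast in the m6A-precipitated libraries, which were made from the other portion of the same brain RNA and are no independent set of brains, also called 429 of the 498 higher genes higher and 704 of the 761 lower genes that were tested there lower. There, 19.7% of genes tested were called higher and 23.8% lower, and 1 gene was called in opposite directions. Removing 1 wildtype library left far fewer calls: 196 higher and 340 lower without wildtype library 1, and 153 higher and 332 lower without wildtype library 2. Without neuroblast-biased library 2, 467 genes were higher and 481 lower. Of 553 called genes examined one by one, 232 kept an adjusted p under 0.05 in every one of the 6 fits that left out 1 library. Every gene said below to have risen or fallen belongs to those 232 unless the text says where its call was lost. Many of the genes named below were picked as called genes whose neuroblast-biased and wildtype values did not overlap. For them the lack of overlap follows from the choice and is no added support.

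**Figure D1:**
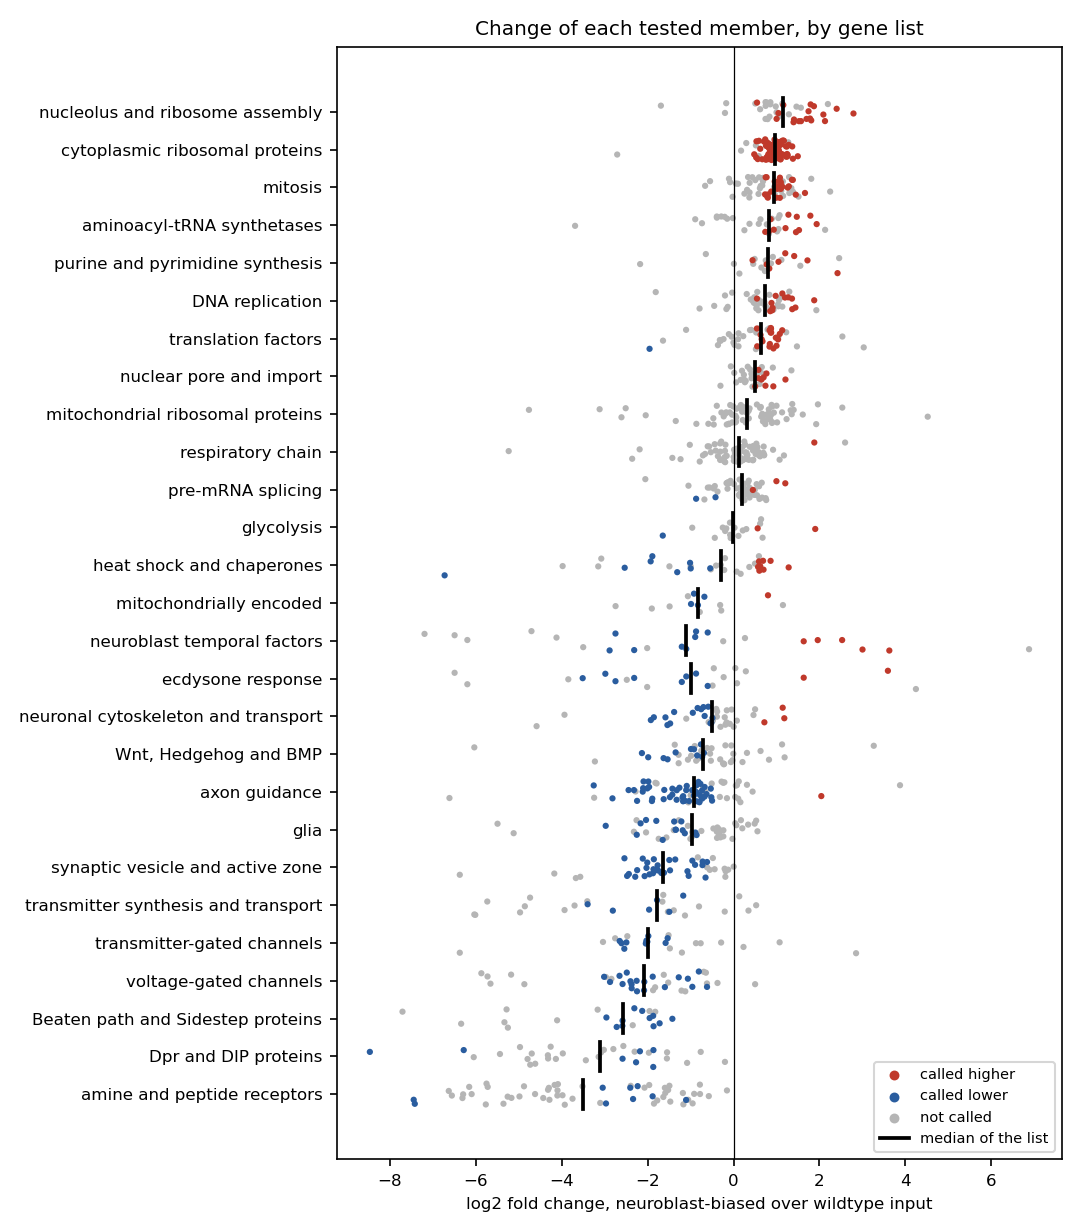
Log2 fold changes, neuroblast-biased over wildtype input, for the tested members of gene lists, with one row a list and the bar at the list's median. Nucleolar (median 1.15) and cytoplasmic ribosomal protein genes (0.96) sit at the top and receptor genes (-3.52) and Dpr and DIP genes (-3.12) at the bottom, beside a median of -0.17 over all genes tested.

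Genes of the nucleolus, the compartment where ribosomal RNA is made and ribosome subunits are put together, were the family with the highest median among the lists of growth and division genes. All 40 members were tested: 18 were called higher and 0 lower, with a median log2 fold change of 1.15. Together the 40 genes took 0.676% and 0.647% of counts in neuroblast-biased libraries, against 0.274% in each wildtype library. The nucleolar GTPase gene Non1 had 1489 and 1248 CPM in neuroblast-biased brains, against 307 and 307 CPM in wildtype brains (log2 fold change 2.13, SE 0.15, adjusted p = 4.69e-07). Fib, which encodes fibrillarin, the methyltransferase of box C/D small nucleolar ribonucleoproteins, had 361 and 397 CPM in neuroblast-biased brains, against 111 and 108 CPM in wildtype brains (log2 fold change 1.81, SE 0.20, adjusted p = 3.24e-05). Neuroblast-biased values of both genes lay more than 3-fold above every wildtype value. The box C/D core proteins Nop56 and nop5 rose by 1.70 and 1.57 on the log2 scale, and the pseudouridine synthase Nop60B by 1.41. Nopp140 (1.16), a nucleolar chaperone, and mod (1.40), the Modulo protein of the nucleolus, rose too. The members with the largest differences were less secure: NHP2, a core protein of box H/ACA particles, had 103.8 and 75.8 CPM in neuroblast-biased brains, against 14.6 and 11.8 CPM in wildtype brains (log2 fold change 2.79), and its call was lost without wildtype library 1 or 2 (adjusted p up to 0.532). Polr1A, the largest subunit of RNA polymerase I, had 208 and 181 CPM in neuroblast-biased brains, against 46.3 and 55.7 CPM in wildtype brains (log2 fold change 1.87) and lost its call without wildtype library 2 (adjusted p = 0.0663). Of the 18 calls, 9 and 7 were left without wildtype library 1 and 2.

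Promoters of these genes shared a sequence that the comparison did not use. The E-box CACGTG, searched on both strands in the 300 bases from 250 before to 50 after each annotated gene start, was present in 27 of the 40 promoters (67.5%), against 3.88% of all annotated genes and 4.55% of the protein-coding genes tested. This motif was added after the values were seen. The share was 72.2% among the 18 nucleolar genes called higher and 63.6% among the 22 not called. Polr1B and Ns1, printed below, lost their calls without wildtype library 1 or 2, and Ns1 also without neuroblast-biased library 1. Windows of 28 bases around the motif are printed for 6 of the genes called higher, with the motif in capitals, from the Release 6 genome (BDGP6) and its Ensembl annotation, 5′ to 3′ on the gene's strand.
NHP2: gtcacactgaaCACGTGtttcgaacaaa
Polr1B: attccaaacaaCACGTGcgaaggaaggc
Ns1: aagactattttCACGTGttcttgtttta
Nop56: cttgaagtaagCACGTGggaaaacaact
nop5: gaccgaaggcaCACGTGcttgcacttca
Nopp140: taagtagaaaaCACGTGtgagtgcgcat
These windows lie at chr3L:14802133-14802160 (minus strand), chr2L:404303-404330 (plus strand), chr3R:17072637-17072664 (minus strand), chr3R:22421024-22421051 (minus strand), chr2L:6918734-6918761 (minus strand) and chr3L:21832781-21832808 (plus strand). Counted from the annotated start, the motif begins at position -7 in nop5 and at 18 to 29 in the other 5. Over all promoters searched, 68 of the 478 protein-coding genes called higher (14.2%) held CACGTG, against 3.38% of those called lower, and the share was 12% among genes called higher outside the nucleolar list. Tested protein-coding genes with the motif had a median log2 fold change of 0.36 and 17.2% were called higher, while genes without it had a median of -0.19 and 4.95% were called higher. A matching string is a description of the letters and was not tested as a binding site.

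Cytoplasmic ribosomal protein genes rose together. Of 92 members, 85 were tested and 79 of these were called higher, none lower, with a median log2 fold change of 0.96. Their summed share of counts was 10.1% and 9.28% in neuroblast-biased libraries, against 4.82% and 5.30% in wildtype libraries and 5.68% and 5.57% in Mettl3 null libraries. Without wildtype library 1 or 2, 67 and 62 of the calls were left. The ribosomal protein gene sta had 4248 and 3785 CPM in neuroblast-biased brains, against 1783 and 1899 CPM in wildtype brains (log2 fold change 1.09, SE 0.08, adjusted p = 7.91e-07). RpL27, a large-subunit protein, had 1015 and 895 CPM in neuroblast-biased brains, against 334 and 379 CPM in wildtype brains (log2 fold change 1.38, SE 0.14, adjusted p = 1.13e-05). In neither gene did the groups overlap, and the Mettl3 null values of 499 and 508 CPM for RpL27 lay between them. RpL24-like had 186 and 180.2 CPM in neuroblast-biased brains, against 56.7 and 68.9 CPM in wildtype brains and lost its call without wildtype library 2 (adjusted p = 0.102). RpS3A, the small-subunit gene carried on chromosome 4, rose by 0.74 on the log2 scale. The 6 tested members that were not called were RpL34a, RpL39, RpS14b, RpS15Ab, RpS19b and RpS5b. Among them RpL39 had 213 and 157 CPM in neuroblast-biased brains, against 151 and 113 CPM in wildtype brains (log2 fold change 0.52, adjusted p = 0.176). RpS14a, called with a log2 fold change of 1.15, and RpS14b, at 0.59 and not called, are near-identical neighbouring copies, and how reads were split between them is uncertain.

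**Figure D2:**
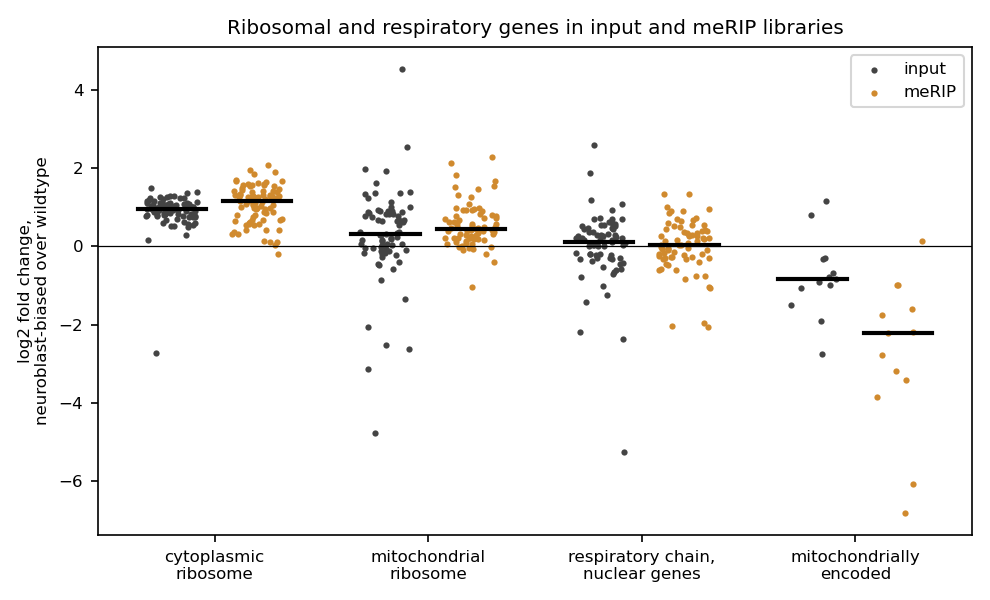
Log2 fold changes, neuroblast-biased over wildtype, of single genes (points) in the input and the m6A-precipitated libraries, for cytoplasmic ribosomal proteins, mitochondrial ribosomal proteins, nuclear genes of the respiratory chain and genes of the mitochondrial genome, with lines at medians. Cytoplasmic ribosomal protein genes centre on 0.96 in input, mitochondrial ribosomal protein genes on 0.32 and respiratory chain genes on 0.12.

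The rest of the translation apparatus was raised in part. Among 46 tested translation factors, 18 were called higher and 1 lower, with a median of 0.64. eEF2, which moves the ribosome along the message, had 3484 and 4467 CPM in neuroblast-biased brains, against 1981 and 2338 CPM in wildtype brains (log2 fold change 0.86, SE 0.11, adjusted p = 1.06e-04), and the helicase eIF4A had 2682 and 2296 CPM in neuroblast-biased brains, against 1379 and 1364 CPM in wildtype brains (log2 fold change 0.84, SE 0.10, adjusted p = 5.93e-05). Both neuroblast-biased values of each lay above both wildtype values. The initiation factor eIF3 subunits eIF3c and eIF3d1 rose by 0.84 and 1.04 on the log2 scale. The subunit eIF3m had 260.3 and 296 CPM in neuroblast-biased brains, against 121 and 131 CPM in wildtype brains (log2 fold change 1.13) and lost its call without wildtype library 1 or 2 (adjusted p up to 0.104). The factor called lower was eEF1alpha2, a paralog of the most abundant factor called. eEF1alpha1, the elongation factor that brings aminoacyl-tRNA to the ribosome, had 10166 and 11108 CPM in neuroblast-biased brains, against 4667 and 5281 CPM in wildtype brains (log2 fold change 1.08, SE 0.06, adjusted p = 6.54e-08). The paralog eEF1alpha2 had 423 and 379.6 CPM in neuroblast-biased brains, against 1639.6 and 1499 CPM in wildtype brains (log2 fold change -1.96, SE 0.12, adjusted p = 1.70e-07). The pair changed in opposite directions, and the groups of eEF1alpha2 lay further apart. The factors called higher numbered 9 and 6 without wildtype library 1 and 2.

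Aminoacyl-tRNA synthetases, which load transfer RNAs with their amino acids, gave 11 called higher and 0 lower of 32 tested, with a median of 0.82. None of the 11 carries the -m suffix given to mitochondrial synthetases. IleRS, for isoleucine, had 433 and 549 CPM in neuroblast-biased brains, against 132 and 129 CPM in wildtype brains (log2 fold change 1.93, SE 0.22, adjusted p = 4.55e-05). AsnRS, for asparagine, had 445 and 312 CPM in neuroblast-biased brains, against 76.3 and 123.2 CPM in wildtype brains (log2 fold change 1.79, SE 0.27, adjusted p = 4.05e-04). The neuroblast-biased values of both were more than 2-fold above the highest wildtype value. HisRS rose by 1.45 and ValRS by 1.47 on the log2 scale. The count of synthetases called was 7 without neuroblast-biased library 2, and 5 and 4 without wildtype library 1 and 2. Nuclear pore and import genes gave 9 higher and 0 lower of 38 with a median of 0.51, but 1 and 3 were left without wildtype library 1 and 2. The largest of these, the exchange factor Rcc1 that charges the GTPase Ran for nuclear transport, had 389.9 and 383 CPM in neuroblast-biased brains, against 131 and 189 CPM in wildtype brains (log2 fold change 1.21), and its call was lost without wildtype library 1 (adjusted p = 0.0778). Small nucleolar RNAs, a list added after the values were seen, had low counts in input RNA, at a median mean of 4.73 CPM. Of 122 tested, 3 were called higher and 0 lower, and the median was 0.10 (-0.66 without neuroblast-biased library 2). Among the 37 with a mean of at least 10 CPM, 3 were higher and 0 lower, with a median of 0.72. snoRNA:Psi28S-1180, a guide for pseudouridine in 28S ribosomal RNA, was the one of these 3 that kept its call throughout, with 248 and 219.6 CPM in neuroblast-biased brains, against 51.5 and 47.4 CPM in wildtype brains (log2 fold change 2.25, SE 0.29, adjusted p = 9.42e-05).

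Enzymes of nucleotide synthesis were higher or not called. Of 22 tested genes for purine and pyrimidine synthesis, 8 were called higher and 0 lower, with a median of 0.80, and their share of counts was 0.320% and 0.271% in neuroblast-biased libraries, against 0.160% and 0.171% in wildtype libraries. Gart, a protein that joins several steps of purine synthesis, had 247 and 228 CPM in neuroblast-biased brains, against 57.1 and 38.9 CPM in wildtype brains (log2 fold change 2.42, SE 0.30, adjusted p = 8.37e-05). Its neuroblast-biased values were more than 3-fold above the higher wildtype value, and the Mettl3 null libraries had 83.2 and 103 CPM. Pfas, another enzyme of the purine pathway, had 207 and 148 CPM in neuroblast-biased brains, against 65.7 and 46.2 CPM in wildtype brains (log2 fold change 1.72) and lost its call without wildtype library 2 (adjusted p = 0.218). The pyrimidine gene r, the rudimentary protein that joins the first steps of pyrimidine synthesis, had 315 and 298 CPM in neuroblast-biased brains, against 128 and 135 CPM in wildtype brains (log2 fold change 1.20) and also lost its call without that library (adjusted p = 0.0711). The number called was 3 and 1 without wildtype library 1 and 2.

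Amino acid transporters split by member. The list, added after the values were seen, had 14 tested genes, 6 called higher and 2 lower, and a median of -0.36, which turned to 0.24 without neuroblast-biased library 1. Its summed share of counts was 0.311% and 0.319% in neuroblast-biased libraries, against 0.160% and 0.169% in wildtype libraries. CG5535, which is annotated as a cationic amino acid transporter, had 329.6 and 288 CPM in neuroblast-biased brains, against 20.3 and 26.8 CPM in wildtype brains (log2 fold change 3.61, SE 0.42, adjusted p = 5.17e-05). JhI-21, a light chain of a heteromeric amino acid exchanger, had 311 and 414 CPM in neuroblast-biased brains, against 32.1 and 66.5 CPM in wildtype brains (log2 fold change 2.79, SE 0.35, adjusted p = 8.26e-05). For both genes the groups were far apart, and Mettl3 null values of 26.5 and 14.6 CPM for CG5535 were close to wildtype. path, a transporter of the SLC36 family that is known from growth of the fly eye and of neurons, had 868 and 1017 CPM in neuroblast-biased brains, against 261 and 227 CPM in wildtype brains (log2 fold change 1.995, SE 0.16, adjusted p = 1.82e-06). mnd, the minidiscs transporter of the SLC7 family, had 273 and 278 CPM in neuroblast-biased brains, against 81.2 and 69.97 CPM in wildtype brains (log2 fold change 1.91, SE 0.24, adjusted p = 7.32e-05). CD98hc, the heavy chain that partners such light chains, had 603 and 673 CPM in neuroblast-biased brains, against 389 and 407 CPM in wildtype brains (log2 fold change 0.68) and lost its call without wildtype library 1 or 2 (adjusted p up to 0.11). In the opposite direction CG12531, another annotated transporter of the cationic family, had 51.4 and 94.9 CPM in neuroblast-biased brains, against 240.4 and 238 CPM in wildtype brains (log2 fold change -1.70, SE 0.28, adjusted p = 7.22e-04). AsnS, the asparagine synthetase, is not a transporter but had 167 and 141 CPM in neuroblast-biased brains, against 31.2 and 32.8 CPM in wildtype brains (log2 fold change 2.23), with the call lost without wildtype library 2 (adjusted p = 0.115).

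Regulators of growth were mixed. The list of Hippo, insulin and TOR pathway genes had 34 tested members, 7 called higher and 3 lower, with a median of 0.09. ImpL2, a secreted protein that binds insulin-like peptides and lowers insulin signalling, had 569.9 and 641 CPM in neuroblast-biased brains, against 51.95 and 49.7 CPM in wildtype brains (log2 fold change 3.59, SE 0.27, adjusted p = 9.07e-07). Its neuroblast-biased values were more than 10-fold above the wildtype values, and 61.9% of its exon length overlaps another annotated gene. Myc, the transcription factor that drives ribosome production, had 666 and 787 CPM in neuroblast-biased brains, against 305 and 274 CPM in wildtype brains (log2 fold change 1.37, SE 0.16, adjusted p = 5.71e-05), and 61.2% of its exon length overlaps another gene. Myc's groups did not overlap, and the Mettl3 null libraries had 286 and 227 CPM. Thor, the translation inhibitor 4E-BP that is repressed by TOR activity, had 174 and 146 CPM in neuroblast-biased brains, against 15.6 and 29.8 CPM in wildtype brains (log2 fold change 2.64) and lost its call without wildtype library 1 or 2 (adjusted p up to 0.275). S6k, a kinase target of TOR, had a log2 fold change of 0.995 and lost its call without wildtype library 2 (adjusted p = 0.291). The members called higher numbered 4 without neuroblast-biased library 2, and 3 and 2 without wildtype library 1 and 2. The 3 members called lower included jeb, a secreted ligand, and its receptor Alk, a receptor tyrosine kinase known to spare brain growth under starvation. jeb had 15.5 and 48.4 CPM in neuroblast-biased brains, against 269.7 and 253 CPM in wildtype brains (log2 fold change -3.09, SE 0.43, adjusted p = 1.98e-04). Alk had 130 and 138 CPM in neuroblast-biased brains, against 445 and 412 CPM in wildtype brains (log2 fold change -1.65, SE 0.20, adjusted p = 5.40e-05). Ligand and receptor were both lower in neuroblast-biased brains, and 3 members were called lower in each fit without 1 library.

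**Figure D3:**
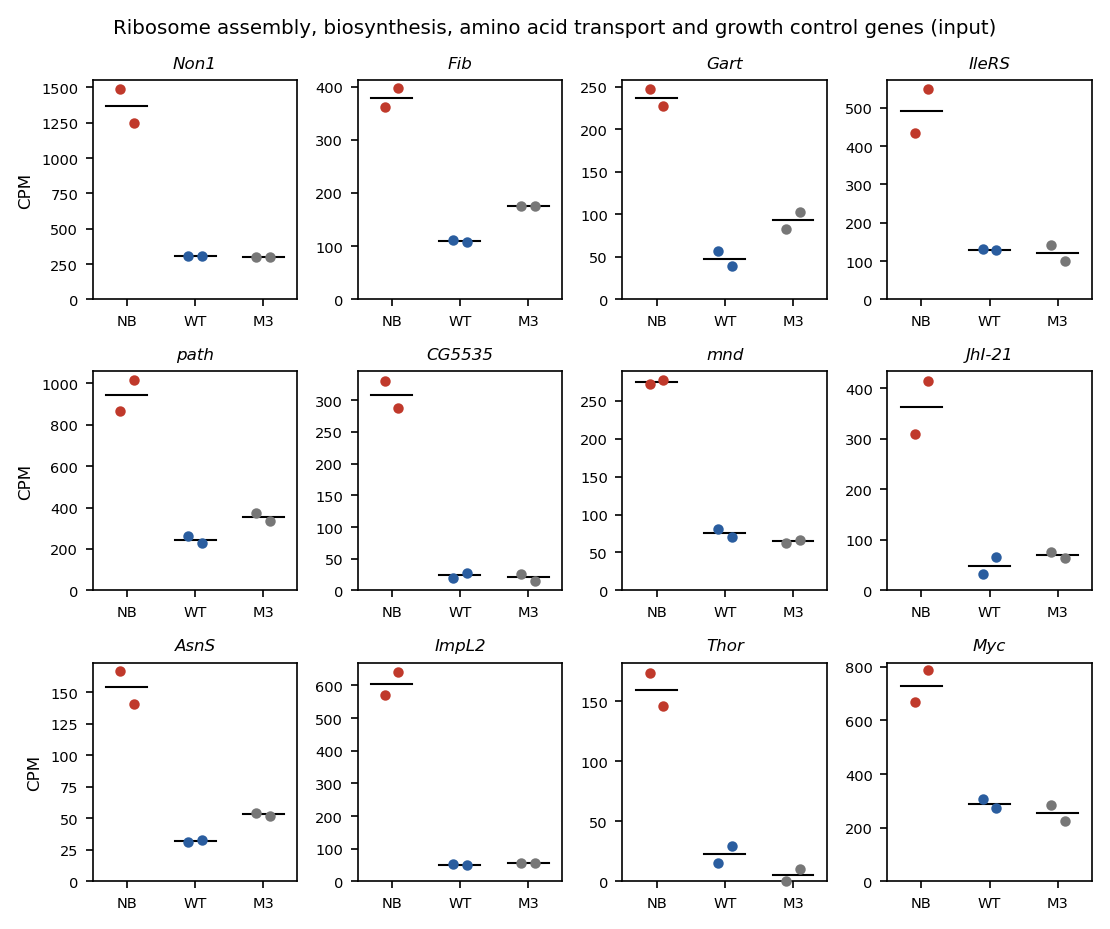
Expression (CPM, each panel on its own axis from 0) of 12 genes of growth and amino acid supply in each input library, with points for the 2 libraries of neuroblast-biased (NB), wildtype (WT) and Mettl3 null (M3) brains and a line at their mean. In every panel both NB points lie above both WT points, and for ImpL2 they lie at 569.9 and 641 CPM, against 51.95 and 49.7 CPM. The genes shown were chosen with their values known.

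Genes of mitosis and of DNA replication were called higher or not called. Of 60 tested mitosis genes 25 were called higher and 0 lower, with a median of 0.95, and of 48 tested replication genes 13 were called higher and 0 lower, with a median of 0.72. Among cyclins, which activate the kinases of the cell cycle, CycA had 409.8 and 465 CPM in neuroblast-biased brains, against 199.8 and 214 CPM in wildtype brains (log2 fold change 1.08, SE 0.17, adjusted p = 4.90e-04), and CycB3 had 310.4 and 296 CPM in neuroblast-biased brains, against 102 and 126 CPM in wildtype brains (log2 fold change 1.36, SE 0.22, adjusted p = 5.98e-04). sti, the citron kinase of cytokinesis, had 583 and 600.4 CPM in neuroblast-biased brains, against 313 and 298 CPM in wildtype brains (log2 fold change 0.97, SE 0.14, adjusted p = 2.76e-04). For each of these 3 genes both neuroblast-biased values exceeded both wildtype values. pav, the kinesin that builds the central spindle, had 259 and 235 CPM in neuroblast-biased brains, against 80.1 and 76.2 CPM in wildtype brains (log2 fold change 1.66) and lost its call without wildtype library 2 (adjusted p = 0.0555). mud, which anchors spindles to the cortex of a dividing neuroblast, rose by 0.96 on the log2 scale, but 98.6% of its exon length overlaps another gene. Without wildtype library 1 or 2, 8 and 4 of the 25 mitosis calls were left and none of the 13 replication calls. The replication calls also numbered 5 and 6 without neuroblast-biased library 1 and 2. Cdc6, a loader of the replicative helicase, had 56.9 and 74.4 CPM in neuroblast-biased brains, against 15.1 and 19.1 CPM in wildtype brains (log2 fold change 1.88), with the call lost without neuroblast-biased library 2 or either wildtype library (adjusted p up to 0.605). Top2, the DNA topoisomerase, had 866 and 1185 CPM in neuroblast-biased brains, against 749 and 692 CPM in wildtype brains (log2 fold change 0.54), and its call was lost in the same fits (adjusted p up to 0.33). Orc1, the largest subunit of the origin recognition complex, had a log2 fold change of 1.44, with groups that did not overlap and the call lost without any one of the 4 neuroblast-biased and wildtype libraries (adjusted p up to 0.703). In promoters of the replication list, the core TATCGAT of the DNA replication-related element was present in 41.7%, against 25.0% of tested protein-coding genes and 13.6% of all annotated genes, but in 30.8% of the 13 members called higher and 45.7% of the 35 not called. It is shown in capitals, in its reverse complement ATCGATA, for 3 genes called higher. RfC4 is a subunit of the clamp loader and lost its call in 5 of the 6 fits (adjusted p up to 0.462).
Cdc6: atgcgcgcctaATCGATAggcgatcgac
RfC4: gttgctaagaaATCGATAaatgtaaaaa
Top2: ttatgggacttATCGATAgcgatttcat
The windows lie at chr3L:8634143-8634170 (minus strand), chr3L:4136083-4136110 (minus strand) and chr2L:19453527-19453554 (minus strand), and the motif begins at positions -90, -61 and -53 from the annotated start.

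Nuclear genes of mitochondria had few calls in input, where 5.28% of all genes tested were higher and 8.09% lower. Splicing genes had shares of 5.88% higher and 3.92% lower. None of 73 tested mitochondrial ribosomal protein genes was called in limma-voom, at a median of 0.32, while 7 had an unadjusted p under 0.05. In edgeR's test 0 were called, and in DESeq2 6 were higher and 1 lower. In the m6A-precipitated libraries 17 of the 73 were called higher and 1 lower. Over all genes tested there, 19.7% were called higher and 23.8% lower. The list had low counts in input, at a median mean of 15.1 CPM against 831 CPM for cytoplasmic ribosomal proteins. Among its 55 members with a mean of at least 10 CPM, the median was 0.54. In limma-voom 1 of 73 nuclear genes of the respiratory chain was called higher, at a median of 0.12. That gene, Cyt-c-p, the somatic cytochrome c, had 150.5 and 104.3 CPM in neuroblast-biased brains, against 21.5 and 39.5 CPM in wildtype brains (log2 fold change 1.88) and lost its call without neuroblast-biased library 1 or either wildtype library (adjusted p up to 0.31). The medians of both lists lay above that of all genes tested and below that of the cytoplasmic ribosomal proteins. Among the 13 protein-coding genes of the mitochondrial genome, 1 was called higher and 4 lower in input, with a median of -0.83, and in the m6A-precipitated libraries 0 were higher and 12 lower, with a median of -2.20. mt:Cyt-b, the cytochrome b of complex III, had 333 and 470.4 CPM in neuroblast-biased brains, against 760.4 and 701 CPM in wildtype brains (log2 fold change -0.83, SE 0.16, adjusted p = 0.00226). mt:ATPase6, a subunit of ATP synthase, had 477 and 709 CPM in neuroblast-biased brains, against 352 and 338 CPM in wildtype brains (log2 fold change 0.80) and was the member called higher, with the call lost without neuroblast-biased library 2 or either wildtype library (adjusted p up to 0.321). The members lower in input numbered 1 and 2 without neuroblast-biased library 1 and 2, and 1 without wildtype library 1. Mettl3 null values were 262 and 134.4 CPM for mt:ATPase6, below both wildtype values. Of 51 splicing genes, 3 were higher and 2 lower, with a median of 0.20, and without either one of the wildtype libraries 1 was higher and 0 lower.

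In glycolysis, 2 of 18 tested genes were called higher and 1 lower, and the median was -0.02, which turned to 0.08 with upper quartile factors and to 0.23 without neuroblast-biased library 1. Ldh, lactate dehydrogenase, which turns pyruvate to lactate, had 207 and 179.5 CPM in neuroblast-biased brains, against 47.2 and 52.9 CPM in wildtype brains (log2 fold change 1.902) and lost its call without wildtype library 2 (adjusted p = 0.0806). Glut1, a glucose transporter, had 169.5 and 166 CPM in neuroblast-biased brains, against 521 and 528 CPM in wildtype brains (log2 fold change -1.65, SE 0.17, adjusted p = 1.64e-05). The 2 genes differed in direction, and their Mettl3 null values were 75.9 and 114 CPM for Ldh and 535 and 492 CPM for Glut1. FASN1, the fatty acid synthase, had 1043 and 1035 CPM in neuroblast-biased brains, against 585 and 589 CPM in wildtype brains (log2 fold change 0.82, SE 0.11, adjusted p = 1.36e-04), with 871 and 919 CPM in the Mettl3 null libraries.

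Of 31 tested genes in the chaperone and heat shock list, 8 were higher and 8 lower. Hsc70-4, the constitutive cytosolic Hsp70, had 5094 and 5139 CPM in neuroblast-biased brains, against 3190.2 and 3143 CPM in wildtype brains (log2 fold change 0.70, SE 0.05, adjusted p = 1.22e-06), and Hsp60A, the mitochondrial chaperonin, had 475 and 506 CPM in neuroblast-biased brains, against 189.9 and 209 CPM in wildtype brains (log2 fold change 1.28, SE 0.18, adjusted p = 2.34e-04). The other 6 called higher were subunits of the cytosolic chaperonin (CCT2, CCT4, CCT5, CCT6, CCT7 and CCT8), at log2 fold changes of 0.57 to 0.86, each of which lost its call without wildtype library 1 and also without wildtype library 2. The chaperones called higher numbered 5 and 3 without neuroblast-biased library 1 and 2, and 2 without either one of the wildtype libraries. Among those lower, the small heat shock protein Hsp23 had 146 and 232 CPM in neuroblast-biased brains, against 1072 and 1119.7 CPM in wildtype brains (log2 fold change -2.54, SE 0.18, adjusted p = 6.10e-07), and Hsp68, a stress-induced Hsp70, had 99.7 and 87.7 CPM in neuroblast-biased brains, against 366 and 332 CPM in wildtype brains (log2 fold change -1.89, SE 0.28, adjusted p = 3.43e-04). For Hsp23 the wildtype values were over 4-fold the neuroblast-biased ones, and the Mettl3 null values were 1164 and 1168 CPM. Hsp27 fell by 1.01 and the co-chaperone DnaJ-1 by 1.31 on the log2 scale. The heat-inducible noncoding RNA lncRNA:Hsromega had 1102 and 1282 CPM in neuroblast-biased brains, against 2418 and 2394 CPM in wildtype brains (log2 fold change -0.998, SE 0.08, adjusted p = 3.05e-06), and is the member of the 8 that encodes no protein. Hsc70-3, the constitutive Hsp70 of the endoplasmic reticulum, was lower too, with 614 and 764 CPM in neuroblast-biased brains, against 1069 and 987 CPM in wildtype brains (log2 fold change -0.54), and lost its call without neuroblast-biased library 1 or either wildtype library (adjusted p up to 0.0963). Hsp67Bc, a small heat shock protein, had 0 and 11.9 CPM in neuroblast-biased brains, against 105 and 138 CPM in wildtype brains, and its call was lost without neuroblast-biased library 2 or either wildtype library (adjusted p up to 0.138).

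Temporal identity genes, which mark the age of a neuroblast lineage, were changed in both directions. Of 23 tested, 5 were higher and 8 lower. Imp, an RNA-binding protein of young lineages, had 2768 and 3076 CPM in neuroblast-biased brains, against 385 and 358 CPM in wildtype brains (log2 fold change 3.002, SE 0.13, adjusted p = 5.90e-09), and svp, an early nuclear receptor of the series, had 324 and 459 CPM in neuroblast-biased brains, against 78.2 and 64.2 CPM in wildtype brains (log2 fold change 2.53, SE 0.28, adjusted p = 3.36e-05). cas, the zinc finger factor that acts with svp, had 525 and 582 CPM in neuroblast-biased brains, against 145 and 142 CPM in wildtype brains (log2 fold change 1.96, SE 0.18, adjusted p = 6.35e-06), and the factor grh rose by 3.63 on the log2 scale. All 4 had groups that did not overlap. Among those lower, mamo, a zinc finger factor of particular neuron fates, had 240.1 and 308 CPM in neuroblast-biased brains, against 2219 and 1968 CPM in wildtype brains (log2 fold change -2.89, SE 0.18, adjusted p = 1.70e-07), and Eip93F, the ecdysone-induced factor of late lineages, had 71.8 and 98.9 CPM in neuroblast-biased brains, against 428 and 431 CPM in wildtype brains (log2 fold change -2.31, SE 0.22, adjusted p = 1.06e-05). chinmo and Syp, the early and late partners that Imp is usually discussed with, were not called: chinmo had 956 and 1149 CPM in neuroblast-biased brains, against 955 and 849 CPM in wildtype brains (log2 fold change 0.27, adjusted p = 0.17), and Syp had 2313 and 3017 CPM in neuroblast-biased brains, against 3529 and 3057 CPM in wildtype brains (log2 fold change -0.24, adjusted p = 0.129). For both genes the nearest values of the groups were almost equal.

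Genes of the ecdysone response, the steroid hormone cascade that times metamorphosis, pointed mainly downward. In this list, added after the values were seen, 8 of 22 tested genes were lower and 2 higher, with a median of -0.99. Eip74EF, an early-response ETS factor, had 54.9 and 58.8 CPM in neuroblast-biased brains, against 398 and 378 CPM in wildtype brains (log2 fold change -2.75, SE 0.30, adjusted p = 3.05e-05). ImpE1, an ecdysone-induced membrane protein, had 48.8 and 37.5 CPM in neuroblast-biased brains, against 340.3 and 328 CPM in wildtype brains (log2 fold change -2.99, SE 0.31, adjusted p = 1.72e-05). Sox14, an ecdysone-induced factor of neuron remodelling, had 24.8 and 7.51 CPM in neuroblast-biased brains, against 136 and 133 CPM in wildtype brains (log2 fold change -3.51, SE 0.60, adjusted p = 0.00107). In all 3 the wildtype values were more than 5-fold the highest neuroblast-biased one. Eip75B fell by 1.21 and br, the Broad factors of the prepupal switch, by 0.87 on the log2 scale. Of the 2 that were higher, ImpL2 is described above, and ftz-f1, a nuclear receptor of later response, had 79.4 and 97.2 CPM in neuroblast-biased brains, against 40.4 and 24.8 CPM in wildtype brains (log2 fold change 1.63), with its call lost without neuroblast-biased library 2 or either wildtype library (adjusted p up to 0.562). The receptor gene EcR was called lower, with its call lost without neuroblast-biased library 1 or either wildtype library. Its partner usp had 81.5 and 72.3 CPM in neuroblast-biased brains, against 68.01 and 73.9 CPM in wildtype brains and was not called (adjusted p = 0.899). Ring gland marker genes, which make ecdysone, summed to 17.0 and 43.8 CPM in neuroblast-biased libraries, against 204 and 206 CPM in wildtype libraries and 57.3 and 46.7 CPM in Mettl3 null libraries, and their part in the ecdysone genes was not tested.

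Genes of the synapse were called lower in neuroblast-biased brains or not called. Of 44 tested genes of the synaptic vesicle and active zone, 30 were called lower in neuroblast-biased brains and 0 higher, with a median of -1.65, and their share of counts was 0.620% and 0.650% in neuroblast-biased libraries, against 1.43% and 1.37% in wildtype libraries. Rim, an organiser of the active zone, had 80.9 and 133 CPM in neuroblast-biased brains, against 583 and 585 CPM in wildtype brains (log2 fold change -2.44, SE 0.23, adjusted p = 7.58e-06). Cadps, the CAPS protein that primes dense-core vesicles, had 118 and 176 CPM in neuroblast-biased brains, against 540.3 and 539.9 CPM in wildtype brains (log2 fold change -1.86, SE 0.19, adjusted p = 1.90e-05). Rab3-GEF, the exchange factor for the vesicle GTPase Rab3, had 58.4 and 45.8 CPM in neuroblast-biased brains, against 252 and 235 CPM in wildtype brains (log2 fold change -2.25, SE 0.29, adjusted p = 1.04e-04). None of these genes had overlapping groups. Syt1 (synaptotagmin), the calcium sensor of vesicle release, fell by 2.54, Syn (synapsin) by 1.68, Nrx-1 (neurexin) by 1.76 and Nlg4 (a neuroligin) by 2.29 on the log2 scale. unc-13, the vesicle priming factor, fell by a smaller 1.07. Without wildtype library 1 or 2, 20 calls were left in each case.

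Transmitter genes were lower for several transmitters at once. Of 25 tested synthesis and transport genes 6 were called lower and 0 higher, with a median of -1.78. Vmat, which loads monoamines into vesicles and has 26.2% of its exon length overlapped by another gene, had 21.5 and 56.2 CPM in neuroblast-biased brains, against 309 and 245 CPM in wildtype brains (log2 fold change -2.81, SE 0.38, adjusted p = 1.72e-04). VAChT, the vesicular acetylcholine transporter, had 87.2 and 111 CPM in neuroblast-biased brains, against 261 and 295 CPM in wildtype brains (log2 fold change -1.50, SE 0.22, adjusted p = 3.88e-04), and VGlut, the vesicular glutamate transporter, had 164 and 215 CPM in neuroblast-biased brains, against 409 and 443 CPM in wildtype brains (log2 fold change -1.17, SE 0.18, adjusted p = 5.32e-04). The vesicular transporters of monoamines, acetylcholine and glutamate all fell. Gad1, the enzyme that makes GABA, had 54.6 and 18.1 CPM in neuroblast-biased brains, against 103.7 and 116 CPM in wildtype brains (log2 fold change -1.97) and lost its call without neuroblast-biased library 2 or either wildtype library (adjusted p up to 0.113). Eaat2, an excitatory amino acid transporter, had 10.7 and 18.2 CPM in neuroblast-biased brains, against 143 and 167 CPM in wildtype brains (log2 fold change -3.40, SE 0.53, adjusted p = 5.35e-04).

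On the receiving side, 11 of 24 tested transmitter-gated channels were lower and 0 higher, with a median of -1.997. The GABA receptor Rdl had 63.3 and 76.4 CPM in neuroblast-biased brains, against 258 and 292 CPM in wildtype brains (log2 fold change -1.99, SE 0.24, adjusted p = 6.83e-05). The nicotinic receptor subunit nAChRalpha6 had 108 and 55.5 CPM in neuroblast-biased brains, against 281 and 305 CPM in wildtype brains (log2 fold change -2.01, SE 0.28, adjusted p = 2.21e-04), and nAChRalpha1 fell by 2.03 on the log2 scale. nAChRalpha3 had 14.2 and 11.3 CPM in neuroblast-biased brains, against 69.7 and 81.7 CPM in wildtype brains (log2 fold change -2.65) and lost its call without neuroblast-biased library 2 or either wildtype library (adjusted p up to 0.117). Both Rdl and nAChRalpha6 had higher values still in Mettl3 null brains, at 462 and 446 CPM for Rdl and 379 and 324 CPM for nAChRalpha6. The channels called numbered 7 without neuroblast-biased library 2, and 6 without either one of the wildtype libraries. Receptors for amines and peptides had the lowest median of the neuronal lists, -3.52, with all 57 tested members below 0, and 9 were called. That number was 5 and 3 without neuroblast-biased library 1 and 2, and 1 and 3 without wildtype library 1 and 2. With members at 0 in a group set to their bound the median was -3.11, and as log2 ratios of mean CPM + 1 it was -2.10. Octalpha2R, an octopamine receptor, had 19.02 and 9.39 CPM in neuroblast-biased brains, against 83.4 and 111 CPM in wildtype brains (log2 fold change -3.05, SE 0.58, adjusted p = 0.0024). In the m6A-precipitated libraries, which held 16554173 to 31352131 counts in these groups and where 23.8% of genes tested were lower, 55 of 58 tested receptors were called lower. The neuropeptide list had low counts in input, at a median mean of 9.59 CPM. Its median log2 fold change was -2.52 with members at 0 in a group set to their bound. As log2 ratios of mean CPM + 1, its median was -1.84. Neuropeptide genes and their processing enzymes gave 6 lower and 0 higher of 44 tested, with a median of -2.78, and 4, 1, 2 and 1 calls were left without neuroblast-biased library 1, 2 and wildtype library 1, 2, in that order.

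Voltage-gated channels, which carry action potentials, were lower in 19 of 37 tested cases and higher in 0, with a median of -2.08. para, the sodium channel, had 25.96 and 35.9 CPM in neuroblast-biased brains, against 242 and 226 CPM in wildtype brains (log2 fold change -2.88, SE 0.39, adjusted p = 1.83e-04). Sh, the Shaker potassium channel, had 159 and 105 CPM in neuroblast-biased brains, against 739 and 684 CPM in wildtype brains (log2 fold change -2.49, SE 0.21, adjusted p = 2.43e-06). Mettl3 null values were 319.9 and 422 CPM for para and 698 and 777 CPM for Sh, which is above both wildtype values for para and across them for Sh. SK, a calcium-activated potassium channel, had 10.6 and 33.1 CPM in neuroblast-biased brains, against 174 and 171 CPM in wildtype brains (log2 fold change -3.01, SE 0.49, adjusted p = 7.55e-04). Ih, the hyperpolarisation-activated channel, fell by 2.37, the calcium channel Ca-alpha1T by 2.08 and the potassium channel Shab by 2.40 on the log2 scale. The calls left were 14 and 10 without neuroblast-biased library 1 and 2, and 9 and 7 without wildtype library 1 and 2.

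Axon guidance and cell surface recognition genes made up the longest list of lower genes: 48 of 73 tested were lower and 1 higher, with a median of -0.92. Dscam2, a homophilic recognition molecule that spaces axon terminals, had 78.6 and 139 CPM in neuroblast-biased brains, against 977 and 1079 CPM in wildtype brains (log2 fold change -3.26, SE 0.22, adjusted p = 4.69e-07). robo3, a receptor for the repellent Slit, had 67.8 and 108 CPM in neuroblast-biased brains, against 359 and 400.2 CPM in wildtype brains (log2 fold change -2.12, SE 0.25, adjusted p = 4.93e-05). Fas2, the fasciclin II adhesion molecule of axon bundles, had 136 and 120 CPM in neuroblast-biased brains, against 528 and 487 CPM in wildtype brains (log2 fold change -1.98, SE 0.19, adjusted p = 9.11e-06). Wildtype values of each were more than 3-fold above both neuroblast-biased values. CadN (N-cadherin) fell by 1.48, Ten-m (a teneurin) by 1.32 and Sema1a (a semaphorin) by 0.80 on the log2 scale. The one member higher, the adhesion gene fw, had 64.7 and 61.1 CPM in neuroblast-biased brains, against 21.3 and 13.6 CPM in wildtype brains (log2 fold change 2.04), and its call was lost without wildtype library 1 or 2 (adjusted p up to 0.643). Sema5c, a semaphorin, had 10.4 and 7.16 CPM in neuroblast-biased brains, against 78.4 and 51.3 CPM in wildtype brains (log2 fold change -2.82), and its call was lost without any one of the 4 libraries (adjusted p up to 0.17). The number lower was 28 and 23 without wildtype library 1 and 2.

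Both pairing families of the immunoglobulin superfamily were lower or not called. Of 21 tested Beaten path and Sidestep genes, ligands and receptors that match axons to partners, 11 were called lower and all 21 were below 0, with a median of -2.59. The calls numbered 7 without neuroblast-biased library 2, and 6 and 5 without wildtype library 1 and 2. side-V had 15.5 and 65.04 CPM in neuroblast-biased brains, against 287 and 278 CPM in wildtype brains (log2 fold change -2.96, SE 0.44, adjusted p = 3.48e-04), and side-VI had 17.2 and 24.7 CPM in neuroblast-biased brains, against 121 and 153 CPM in wildtype brains (log2 fold change -2.72, SE 0.45, adjusted p = 8.03e-04). Of 32 Dpr and DIP genes, which pair synaptic partners, 7 were called lower and all 32 were below 0, with a median of -3.12 (-3.05 with members at 0 set to their bound, and -2.11 as log2 ratios of mean CPM + 1). dpr20 had 0 and 0 CPM in neuroblast-biased brains, against 40.6 and 20.1 CPM in wildtype brains, and its call was lost without wildtype library 1 or either neuroblast-biased library (adjusted p up to 0.216). dpr12 had 52.1 and 67.04 CPM in neuroblast-biased brains, against 197 and 233 CPM in wildtype brains (log2 fold change -1.87, SE 0.31, adjusted p = 8.54e-04), the only member of its family to keep its call in each fit without 1 library. The family's calls numbered 3 without neuroblast-biased library 2 and 2 without either one of the wildtype libraries. In the m6A-precipitated libraries, where 23.8% of genes tested were lower, 30 of the 32 were lower.

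GAGAG, the core recognised by GAGA factor, was found in 48.5% of the promoters of protein-coding genes called lower, against 28.7% of those called higher and 30.4% of those tested, and in 58.9% of the axon guidance list and 59.5% of the voltage-gated channel list. Windows are printed for 4 axon guidance genes, with GAGAG or its reverse complement CTCTC in capitals.
Dscam2: gcgcatgcgctGAGAGcagccactggcg
Ten-m: gctctctctctCTCTCccacagactcgg
tutl: tctctcgcaatCTCTCtgttcgtgcagc
Fas2: acgcgtcgagtgctctgcttgctGAGAG
They lie at chr3L:7189990-7190017 (minus strand), chr3L:22407883-22407910 (minus strand), chr2L:4283072-4283099 (plus strand) and chrX:4206044-4206071 (minus strand). tutl, the Turtle protein of the immunoglobulin family, fell by 1.42 on the log2 scale. The motif is short and was present in 29.0% of all annotated promoters, and it was also in 71.4% of the amino acid transporter list, which held more higher than lower calls.

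Cytoskeleton genes were mixed, with 15 of 37 tested lower and 3 higher, and with 9 lower without neuroblast-biased library 1 and 7 lower without either one of the wildtype libraries. futsch, the microtubule protein of axons and terminals, had 263 and 226 CPM in neuroblast-biased brains, against 905 and 924 CPM in wildtype brains (log2 fold change -1.93, SE 0.14, adjusted p = 7.91e-07), and Appl, the fly amyloid precursor protein, had 702 and 653 CPM in neuroblast-biased brains, against 1874 and 1876 CPM in wildtype brains (log2 fold change -1.48, SE 0.11, adjusted p = 8.39e-07). kst, the heavy spectrin of the apical cortex, went the other way, with 348 and 406 CPM in neuroblast-biased brains, against 156 and 181 CPM in wildtype brains (log2 fold change 1.14, SE 0.19, adjusted p = 8.67e-04). Neuronal RNA-binding proteins had 10 lower and 3 higher of 33. shep, a neuron remodelling protein, had 476 and 628 CPM in neuroblast-biased brains, against 1946 and 1859 CPM in wildtype brains (log2 fold change -1.76, SE 0.14, adjusted p = 1.60e-06), while mbl, the splicing factor muscleblind, had 1350.4 and 1784 CPM in neuroblast-biased brains, against 812 and 796 CPM in wildtype brains (log2 fold change 0.99, SE 0.13, adjusted p = 1.40e-04), and larp, which binds messages of the translation apparatus, rose by 0.84 on the log2 scale. Arc1, a capsid-forming protein of synapses derived from a retrotransposon, had 14.1 and 26.4 CPM in neuroblast-biased brains, against 365 and 348 CPM in wildtype brains (log2 fold change -4.09, SE 0.45, adjusted p = 2.91e-05). That was the largest fall among called genes with more than 3 counts in each of the 4 libraries, a mean of at least 10 CPM and no overlap between groups. Some genes with 0 counts in a neuroblast-biased library had larger fitted falls. Among the next largest were jus, with 4.63 and 6.57 CPM in neuroblast-biased brains, against 105 and 80.1 CPM in wildtype brains (log2 fold change -3.93, lost without wildtype library 1 or 2, adjusted p up to 0.102), and CG9416, with 10.7 and 2.23 CPM in neuroblast-biased brains, against 58.6 and 66.8 CPM in wildtype brains (log2 fold change -3.87, lost without any one of the 4 libraries, adjusted p up to 0.201).

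**Figure D4:**
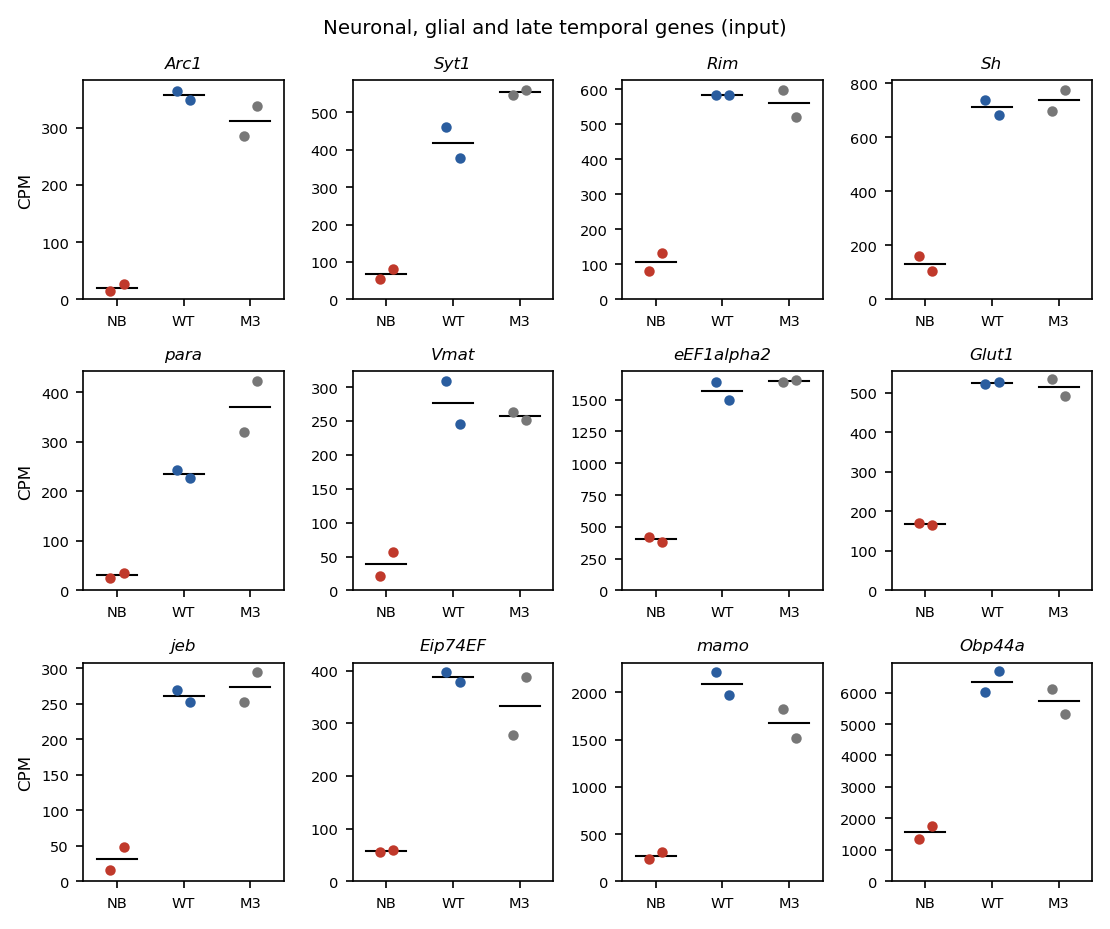
Expression (CPM, each panel on its own axis from 0) of 12 genes lower in neuroblast-biased brains in each input library, with points for the 2 libraries of neuroblast-biased (NB), wildtype (WT) and Mettl3 null (M3) brains and a line at their mean. In every panel both NB points lie below both WT points, and for Arc1 they lie at 14.1 and 26.4 CPM, against 365 and 348 CPM. The genes shown were chosen with their values known.

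Glial genes were lower or not called. Of 47 tested glial genes 14 were lower and 0 higher, with a median of -0.96, and the 8 defining markers summed to 844 and 697 CPM in neuroblast-biased brains, against 1078 and 1106 CPM in wildtype brains. Obp44a, an abundant odorant-binding family protein of glia, had 1348 and 1769.8 CPM in neuroblast-biased brains, against 6002 and 6687 CPM in wildtype brains (log2 fold change -2.04, SE 0.12, adjusted p = 1.54e-07). Gs2, a glutamine synthetase, had 72.6 and 47.4 CPM in neuroblast-biased brains, against 259 and 278 CPM in wildtype brains (log2 fold change -2.25, SE 0.30, adjusted p = 1.55e-04), and the Mettl3 null libraries were higher again at 726 and 599.7 CPM. Nrx-IV, the septate junction protein of the blood-brain barrier, had 183 and 227 CPM in neuroblast-biased brains, against 457 and 454 CPM in wildtype brains (log2 fold change -1.14, SE 0.19, adjusted p = 8.04e-04). All 3 genes had groups that did not overlap. The 14 calls came to 6 and 8 without wildtype library 1 and 2. Wnt, Hedgehog and BMP pathway genes gave 11 lower and 0 higher of 42 (5 and 6 lower without neuroblast-biased library 1 and 2, 3 and 4 without wildtype library 1 and 2), among them the Wnt receptor fz2 with 220.1 and 272 CPM in neuroblast-biased brains, against 734 and 714 CPM in wildtype brains (log2 fold change -1.54, SE 0.15, adjusted p = 1.49e-05).

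Defining markers of tissues outside the brain were called lower or not called. The 6 salivary gland glue markers had 0 counts in both neuroblast-biased libraries, against summed levels of 220 and 213 CPM in wildtype libraries and 9.55 and 20.5 CPM in Mettl3 null libraries. All 6 were called lower, but with neuroblast-biased library 1 or 2 left out none of the 7 calls in the glue list was left, and 2 were left without either one of the wildtype libraries. Fat body markers summed to 38.04 and 19.25 CPM in neuroblast-biased libraries, against 81.9 and 103 CPM in wildtype libraries, and none of the 5 was called. None of the defining blood, muscle and photoreceptor markers was called in limma-voom either. The wider lists of these tissues are short, and their calls were not tested against the shares over all genes tested, 5.28% higher and 8.09% lower. They held 1 higher and 3 lower of 16 for fat body and yolk, and 0 higher and 2 lower of 16 for blood cells. There were 0 higher and 1 lower of 17 for muscle, and 1 higher, the gene w, and 2 lower of 19 for photoreceptor and eye. Without wildtype library 2 none of the blood, muscle or photoreceptor calls was left, and 1 higher and 2 lower were left for fat body and yolk.

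Optic lobe patterning genes fell in 12 of 48 tested cases and rose in 2, and factors of neuron identity fell in 11 of 54 and rose in 3. The genes lower numbered 5 and 2 in the optic lobe list and 4 and 2 in the neuron identity list without wildtype library 1 and 2, and 7 and 6 without neuroblast-biased library 1. The genes higher numbered 1 in either list without one of the wildtype libraries, and 1 and 2 without neuroblast-biased library 1. hth, a homeodomain factor of the medulla, had 386 and 513 CPM in neuroblast-biased brains, against 823 and 782 CPM in wildtype brains (log2 fold change -0.81, SE 0.14, adjusted p = 0.00116). fru, the zinc finger factor of sex-specific neurons that is also made in neuroblasts, had 529.5 and 644 CPM in neuroblast-biased brains, against 135 and 163 CPM in wildtype brains (log2 fold change 1.95, SE 0.21, adjusted p = 2.22e-05). jim, a zinc finger factor, had 1473 and 1873 CPM in neuroblast-biased brains, against 4488 and 4148 CPM in wildtype brains (log2 fold change -1.33, SE 0.09, adjusted p = 6.60e-07). These genes did not overlap between groups, and fru went against the direction of most of its list. Polarity genes of the dividing neuroblast gave 9 higher and 3 lower of 25 (6 higher without neuroblast-biased library 2, and 4 and 3 without wildtype library 1 and 2), and of 30 Notch pathway genes 3 were higher and 2 lower (2 and 0 higher without wildtype library 1 and 2, and 1 lower without either of them or neuroblast-biased library 2). The coactivator of Notch, mam, had 337 and 381 CPM in neuroblast-biased brains, against 750 and 778 CPM in wildtype brains (log2 fold change -1.09, SE 0.13, adjusted p = 6.68e-05). The called polarity genes include aPKC, a form of which the UAS-aPKC-CAAX transgene of neuroblast-biased brains also encodes. The part of transgene reads in its counts was not tested.

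Long noncoding RNAs had low counts, at a median mean of 3.26 CPM against 28.3 CPM over all genes tested. Of 437 tested, 9 were called higher and 8 lower. Among the 82 with a mean of at least 10 CPM, 9 were higher and 7 lower, with a median log2 fold change of 0.39. Of all 6720 genes with such a mean, 496 were higher and 747 lower. The median of the 437, -0.29, turned to 0.35 without wildtype library 1 and to 0.05 without neuroblast-biased library 2. Without that library 17 were higher and 5 lower, and 6 and 5 were higher without wildtype library 1 and 2. They took 9.35% and 10.4% of counts in neuroblast-biased libraries, against 3.57% and 3.45% in wildtype libraries, most of it from lncRNA:cherub. lncRNA:cherub, a noncoding RNA known from neuroblast division and brain tumours, took 7.36% and 8.37% of counts in neuroblast-biased libraries, against 1.52% and 1.38% in wildtype libraries. lncRNA:CR33938 had 2031 and 2585 CPM in neuroblast-biased brains, against 699 and 777 CPM in wildtype brains (log2 fold change 1.64, SE 0.14, adjusted p = 2.39e-06), and lncRNA:CR43334 had 289 and 327 CPM in neuroblast-biased brains, against 75.6 and 58.3 CPM in wildtype brains (log2 fold change 2.29, SE 0.25, adjusted p = 3.03e-05). lncRNA:CR46006 went the other way, with 298 and 239.6 CPM in neuroblast-biased brains, against 1036 and 1009.7 CPM in wildtype brains (log2 fold change -1.95, SE 0.17, adjusted p = 5.41e-06). No function is given here for these 3. The male-specific lncRNA:roX1, which coats the X chromosome of males, had 2073 and 3177 CPM in neuroblast-biased brains, against 1532 and 1537 CPM in wildtype brains (log2 fold change 0.79), and its call was lost without wildtype library 1 (adjusted p = 0.0605).

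The 5 largest rises, among called genes with more than 3 counts in each of the 4 libraries, a mean of at least 10 CPM and no overlap between groups, were those of lncRNA:CR40469, lncRNA:CR31386, w, CG13305 and Culd. lncRNA:CR40469, a noncoding gene on the X chromosome, had 1173 and 1145 CPM in neuroblast-biased brains, against 5.20 and 7.70 CPM in wildtype brains (log2 fold change 7.39), with its call lost without wildtype library 2 (adjusted p = 0.0581). lncRNA:CR31386 had 191 and 251 CPM in neuroblast-biased brains, against 7.56 and 0.76 CPM in wildtype brains (log2 fold change 6.80) and Culd had 82.7 and 112 CPM in neuroblast-biased brains, against 2.83 and 6.40 CPM in wildtype brains (log2 fold change 4.32), and both lost their calls without wildtype library 1 or 2 (adjusted p up to 0.283 for lncRNA:CR31386 and 0.523 for Culd). w, the white eye pigment transporter, had 229 and 207 CPM in neuroblast-biased brains, against 2.83 and 2.17 CPM in wildtype brains (log2 fold change 6.44), with its call lost without wildtype library 1 or 2 (adjusted p up to 0.335). A mini-white marker is carried by many fly transgenes, and its part in the w reads was not tested. Pex7, the peroxisomal import receptor, had 695 and 699 CPM in neuroblast-biased brains, against 38.3 and 36.6 CPM in wildtype brains (log2 fold change 4.23, SE 0.32, adjusted p = 1.11e-06), and CG13305, which is transcribed away from it from a start 322 bases off, had 191 and 164 CPM in neuroblast-biased brains, against 10.2 and 5.10 CPM in wildtype brains (log2 fold change 4.80, lost without wildtype library 1 or 2, adjusted p up to 0.33). The groups were far apart at both genes. This neighbourhood was looked at after the values were seen. Over all genes tested, 5.28% were higher and 8.09% lower. Of 20 tested genes within 100 kb of Pex7 on 3L, 4 were higher and 1 lower, and their median log2 fold change was -0.09. These counts include Pex7 and CG13305 themselves, and the other 2 called higher were RpL14 and Cdc6.

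Genes lower in neuroblast-biased brains were long. Gene span, from the first to the last annotated base, had a median of 18170.5 bases among protein-coding genes called lower, against 3563 bases among those called higher and 3084 bases among those tested. With genes ordered by span and split into 5 bins of equal size, from shortest to longest, 1.21%, 1.27%, 3.11%, 9.92% and 27.1% were called lower, while the share called higher stayed between 4.61% and 6.86%. Longer genes also had higher mean expression, at a median of 78.7 CPM in the longest bin and 11.7 CPM in the shortest. With the mean held to 50 CPM or more, the share lower still ran from 5.24% in the shortest bin to 48.6% in the longest, and the share higher from 24.7% to 7.35%. Exon GC content ran the other way, with median log2 fold changes of -0.55 in the bin with least GC and 0.06 in the bin with most.

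Chromosome 4, the small and largely heterochromatic fly autosome, stood apart: 29 of its 92 tested genes were lower (31.5%) and 2 higher, with a median of -0.86, while the other arms had medians of -0.24 to -0.11 and 7.12% to 9.32% lower. Its genes are long, with a median span of 10484 bases against 2909.5 to 3455.5 bases on the other arms. Within the longest 2 bins of genes by span, 45.2% of the 62 chromosome 4 genes were lower, against 18.1% of 3407 elsewhere. These chromosome 4 genes were also better counted, at a median mean of 120 CPM against 73.9 CPM elsewhere, and expression was not matched. CaMKII, the calcium-dependent kinase of synaptic plasticity, had 149 and 178 CPM in neuroblast-biased brains, against 366 and 327 CPM in wildtype brains (log2 fold change -1.05, SE 0.19, adjusted p = 0.00191). apolpp, the lipid carrier apolipophorin, had 279 and 410.3 CPM in neuroblast-biased brains, against 912 and 905 CPM in wildtype brains (log2 fold change -1.38, SE 0.17, adjusted p = 6.33e-05). pan, the transcription factor at the end of Wnt signalling, had 324 and 351 CPM in neuroblast-biased brains, against 680.4 and 622 CPM in wildtype brains (log2 fold change -0.92, SE 0.15, adjusted p = 9.00e-04). Each of the 3 had both neuroblast-biased values below both wildtype values. The 2 genes called higher were RpS3A and lncRNA:CR44024.

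**Figure D5:**
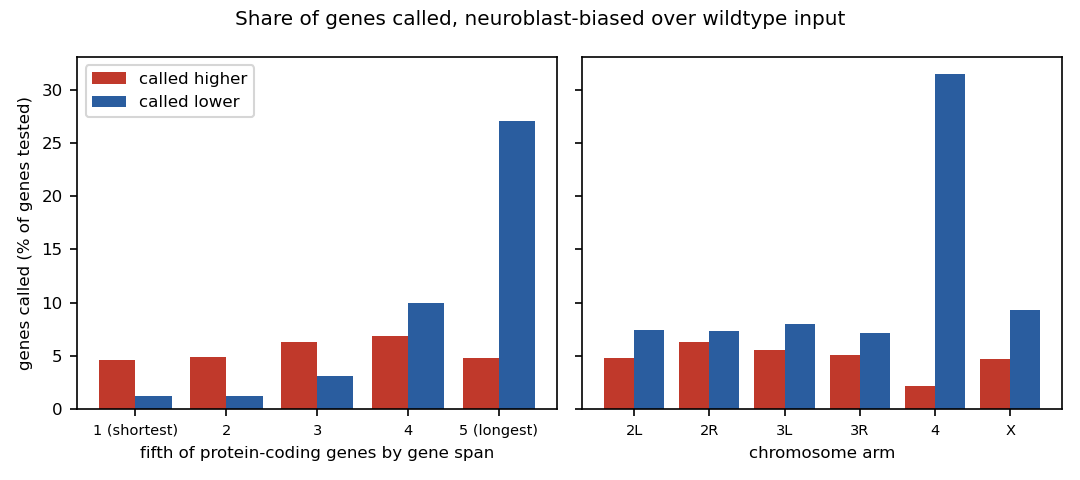
Share of genes called higher and lower in neuroblast-biased over wildtype input (percent of genes tested), by bin of gene span, 5 bins of equal size, for protein-coding genes (left) and by chromosome arm (right). The share lower reaches 27.1% in the longest bin and 31.5% on chromosome 4.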

How the data were processed

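RNA from larval brain lobes was measured before (input) and after precipitation with an m6A antibody (meRIP) in 12 libraries, 2 for each of 3 genotypes. The authors deposited whole-number read counts per gene, with no normalisation. Per the labels, processing used Trimmomatic, kallisto and build BDGP6. Per the study's methods, kallisto was used for input reads and featureCounts for meRIP reads. How kallisto output became whole counts per gene, and whether strand was used, is not given in the sources used here.

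The 6 input libraries were fitted together with limma-voom (limma 3.58.1, edgeR 4.0.16, R 4.3.3). Genes passed filterByExpr with a minimum count of 10, libraries were scaled by TMM, and p-values were adjusted by Benjamini-Hochberg over all 9423 genes tested. The contrast was neuroblast-biased minus wildtype, and a gene was called at an adjusted p under 0.05. The 6 meRIP libraries were fitted likewise. DESeq2 1.42.0 and edgeR's quasi-likelihood test were alternatives. Scripts were tested on simulated data. The study's methods call the replicates biological. Input and meRIP libraries were made from portions of the same RNA.

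Members and gene lists were chosen with earlier results of these data known. The rule for named genes took, among called genes with groups that did not overlap and a mean of at least 10 CPM, the 2 largest changes and the most abundant gene of each list, and over all genes with more than 3 counts in each of the 4 libraries the 5 largest rises and falls. Of these genes many but not all are described, and other genes were named after their values were seen. The lists of amino acid transporters, ecdysone response genes and small nucleolar RNAs were added then too. Lists share members and are described by counts and medians, without a test. Of 17807 identifiers, 17710 matched the Ensembl annotation.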

Additional observations from a re-analysis of the deposited data

How the results depend on the processing

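The number of genes called depended on the method and on single libraries. DESeq2 called 1071 genes higher and 1474 lower, against 498 and 762 in limma-voom. Requiring a 2-fold difference left 289 higher and 582 lower. Leaving out 1 library at a time gave 153 to 516 higher and 332 to 812 lower genes in input, and 1020 to 2089 higher and 1682 to 2374 lower genes in meRIP. The share of calls that were higher was 39.5%, and 31.5% to 49.4% across settings. The median log2 fold change of all genes moved by 0.104 with edgeR and 0.111 with DESeq2. Of 553 called genes examined, none reversed in any setting, while 263 and 291 lost their call without wildtype library 1 and 2. Deviations of same-numbered libraries from their group means correlated at 0.0517, -0.0406 and 0.038 over all genes tested. Noise from low counts enters these values, so they cannot exclude a batch shared by replicate number. With a replicate block, 483 genes were higher and 763 lower in input, and 2189 higher and 2441 lower in meRIP. Depth limits the low genes, since 532 genes tested had 0 counts in 1 neuroblast-biased library and at least 50 in the other.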
